A study of Mus musculus with 2 samples.

Results

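The genes described here are 10 genes of hyaluronan synthesis and binding, out of 27998 genes in the deposited tables. They are the hyaluronan synthases Has1, Has2 and Has3, the precursor enzyme Ugdh and the hyaluronan-binding genes Tnfaip6 and Vcan. The others are Ptx3, whose product binds the Tnfaip6 product, the receptor gene Cd44, and the hyaluronidases Hyal1 and Hyal2. They were followed through fibro-adipogenic progenitors (FAP cells) and the other cells of 2 mouse muscles, with 1 droplet single-cell RNA library each of quadriceps and of diaphragm. The genes were selected on measured values of these same FAP cells, above all the Has1 and Tnfaip6 levels in diaphragm, so every level and ratio below is a description and none was tested.

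Both libraries came from C57BL/6J mice with no treatment named, 10 mice in all, and cells of several animals were pooled within each tissue. The tissue was digested with collagenase B and dispase II at 37 °C, cleared of debris on Lympholyte-M, and viable cells were sorted by light scatter alone. Age and sex of the mice were not given in the sources used here. Tissue, animal pool and library cannot be told apart, and fewer or more cells of a kind in a library may come from the digestion as well as from the muscle.

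The quadriceps library held 5159 cell barcodes and 50854519 unique molecular identifier (UMI) counts, and the diaphragm library 2499 barcodes and 28545242 UMIs. The libraries had 5 barcodes in common. FAP cells were taken as barcodes with at least 1 UMI of Pdgfra, the platelet-derived growth factor receptor that marks these cells, and at least 50 UMIs of Dcn, the matrix proteoglycan decorin. This gave 2339 FAP cells in quadriceps, with a median of 10782 UMIs, and 2010 in diaphragm, with a median of 12575.5 UMIs. All 8 FAP marker genes were detected in the FAP cells of both tissues, but Pdgfra and Dcn among them define these cells. Detection alone does not set FAP cells apart, since all 8 endothelial marker genes also had UMIs in them. Mitochondrial genes took more than 5% of UMIs in 24.4% of the quadriceps and 21.9% of the diaphragm FAP cells.

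Hyaluronan is a very long unbranched sugar polymer of the extracellular matrix. A synthase in the cell membrane joins glucuronic acid and N-acetylglucosamine and pushes the growing chain out of the cell, and each of the synthase genes encodes such an enzyme. Ugdh makes the UDP-glucuronic acid that the synthases use. Outside the cell, the product of Tnfaip6, known as TSG-6, moves protein heavy chains onto hyaluronan, the pentraxin encoded by Ptx3 binds TSG-6 and these heavy chains, and versican, encoded by Vcan, is a large proteoglycan that binds hyaluronan through its end domain. CD44 is the main cell surface receptor for hyaluronan, Hyal2 is a membrane-anchored hyaluronidase and Hyal1 a lysosomal one. In muscle, FAP cells are the stromal cells that make much of this matrix.

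All 10 genes are annotated as protein coding in GENCODE M21 on the mouse build GRCm38. Has1 (ENSMUSG00000003665) lies at chr17:17843323-17855205 on the minus strand, Has2 (ENSMUSG00000022367) at chr15:56665627-56694539 on the minus strand and Has3 (ENSMUSG00000031910) at chr8:106870242-106884566 on the plus strand. Ugdh (ENSMUSG00000029201) lies at chr5:65413221-65435949 on the minus strand. Tnfaip6 (ENSMUSG00000053475) lies at chr2:52038009-52056686 and Ptx3 (ENSMUSG00000027832) at chr3:66219910-66225805, both on the plus strand, and Vcan (ENSMUSG00000021614) at chr13:89655312-89742509 on the minus strand. Cd44 (ENSMUSG00000005087) lies at chr2:102811141-102901665 on the minus strand. The hyaluronidase genes are neighbours on the plus strand, Hyal2 (ENSMUSG00000010047) at chr9:107567945-107572779 and Hyal1 (ENSMUSG00000010051) at chr9:107576927-107581710. Hyal1 overlaps Hyal3 and Naa80 on its own strand, and the way reads in the overlap were shared out is not given in the sources used here, so its counts are uncertain. Ptx3 lies within Veph1 on the opposite strand, and Veph1 had only 2 UMIs in the whole quadriceps and 11 in the whole diaphragm library.

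The promoter sequences of Has1, Tnfaip6 and Ptx3 are shown because these are the genes whose FAP levels differed by more than 2-fold between the tissues. Each runs 5′ to 3′ on the gene's strand, from 250 bases before to 50 bases after the RefSeq start on GRCm38.p6, and capitals mark matches to the motifs sought. The windows are chr17:17855139-17855438 on the minus strand for Has1, chr2:52037863-52038162 on the plus strand for Tnfaip6 and chr3:66219637-66219936 on the plus strand for Ptx3.
Has1: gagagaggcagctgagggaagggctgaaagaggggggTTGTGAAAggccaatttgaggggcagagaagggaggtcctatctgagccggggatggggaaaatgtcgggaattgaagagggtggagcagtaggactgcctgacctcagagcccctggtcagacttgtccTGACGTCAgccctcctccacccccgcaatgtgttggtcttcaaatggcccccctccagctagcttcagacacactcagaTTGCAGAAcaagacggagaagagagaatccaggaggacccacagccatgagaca
Tnfaip6: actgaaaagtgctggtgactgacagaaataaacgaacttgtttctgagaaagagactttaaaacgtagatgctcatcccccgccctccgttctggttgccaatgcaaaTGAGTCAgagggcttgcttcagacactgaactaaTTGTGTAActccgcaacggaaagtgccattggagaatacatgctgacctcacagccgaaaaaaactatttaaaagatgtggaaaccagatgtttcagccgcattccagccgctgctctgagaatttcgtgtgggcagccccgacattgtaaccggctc
Ptx3: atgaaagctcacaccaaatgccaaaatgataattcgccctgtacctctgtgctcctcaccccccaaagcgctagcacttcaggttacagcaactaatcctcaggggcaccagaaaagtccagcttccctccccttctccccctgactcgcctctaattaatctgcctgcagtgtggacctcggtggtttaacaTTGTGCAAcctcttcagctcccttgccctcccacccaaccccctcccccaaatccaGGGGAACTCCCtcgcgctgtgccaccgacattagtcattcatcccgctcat
Both strands were searched for the AP-1 motif TGANTCA, the cyclic AMP response element TGACGTCA, the TATA box TATAAA, the C/EBP motif TTNNGNAA, an NF-kB motif and a serum response element. Has1 had the cyclic AMP response element, which 1.79% of 32841 promoters of this length held, and 2 C/EBP matches. Tnfaip6 had an AP-1 match, as 7.81% of promoters did, and a C/EBP match. Ptx3 had a C/EBP match and 2 overlapping NF-kB matches across its start. NF-kB matches stood in 4.51% and C/EBP matches in 40.7% of all promoters. Hyal2 had an NF-kB match, and Ugdh, Hyal1, Cd44 and Vcan had no match of any of the 6 motifs in their windows. No promoter sequence was available for Has2 and Has3, so these genes were not searched. These are matches of letters and not measured sites.

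Has1 was, among the 2 muscles, mainly a gene of diaphragm FAP cells. Levels are given as CPM, the UMIs of a gene scaled to a group total of 1000000 UMIs, with exact Poisson 95% intervals, and ratios with exact conditional binomial 95% intervals. All intervals cover counting error only and not the spread between animals, and those of levels and ratios also leave out the spread between single cells. In diaphragm FAP cells the variance of UMIs per cell was 24.1 times the mean for Has1, 29.1 for Tnfaip6 and 29.3 for Ptx3. The intervals of levels and ratios are therefore too narrow for the cells sampled. In quadriceps FAP cells Has1 had 355 UMIs, a level of 13.4 CPM (12.0 to 14.8). In diaphragm FAP cells it had 3948 UMIs, a level of 152 CPM (147 to 157). The diaphragm level was thus 11.4 times the quadriceps level (10.2 to 12.7), the largest ratio among the 9 genes with enough UMIs to compare.

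Outside FAP cells and FAP-like barcodes, Has1 was near absent from both libraries. The remaining barcodes were clustered without the 10 genes, and clusters were named from marker genes as "like" a cell type. In quadriceps, 1096 smooth muscle- or mural-like cells held 1 Has1 UMI, and the B cell-like, endothelial-like, macrophage-like, NK cell-like, satellite cell-like, Schwann-like, T cell-like and tenocyte-like cells held 0. For the 213 satellite cell-like cells the count of 0 allows up to 2.88 CPM, but for the 82 endothelial-like cells it allows 12.6 CPM, close to the quadriceps FAP level. In diaphragm, 89 T cell-like cells held 2 UMIs (4.30 CPM) and 52 B cell-like cells held 1 (3.88 CPM), and 16 macrophage-like and 39 unnamed barcodes held 1 each. A group of FAP-like barcodes with too few Dcn or Pdgfra UMIs for the FAP definition had Has1 at 23.4 CPM (16.5 to 32.2) in 339 quadriceps barcodes and 138 CPM (115 to 165) in 199 diaphragm barcodes. The difference between tissues was therefore seen in FAP-like barcodes on both sides of the definition.

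Has2, the synthase gene needed for embryonic heart development, did not share the Has1 difference. It was at 40.4 CPM in quadriceps FAP cells (1072 UMIs) and 34.8 CPM in diaphragm FAP cells (903 UMIs), a ratio of 0.862 (0.788 to 0.942). FAP cells and the FAP-like barcodes outside the definition (48.5 to 73.4 CPM in quadriceps and 49.8 to 84.8 CPM in diaphragm, as 95% intervals) again held the highest levels. The highest level in another class with at least 20 cells was 10.4 CPM in quadriceps Schwann-like cells, from 8 UMIs. Has3 was barely counted, with 12 UMIs in all quadriceps and 5 in all diaphragm FAP cells, below the 100 UMIs over both tissues set for a comparison.

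Ugdh, upstream of every synthase, was higher in FAP cells than in every other class with at least 20 cells, FAP-like barcodes aside. It reached 280 CPM in quadriceps and 371 CPM in diaphragm FAP cells, a ratio of 1.32 (1.28 to 1.37). In the FAP-like barcodes it was higher still, at 493 and 683 CPM. Its next highest level was 60.7 CPM in quadriceps tenocyte-like cells, and in diaphragm it was 73.8 CPM in 21 satellite cell-like cells. Its summed level and its share of FAP cells did not give the same order. After each cell was thinned to 3000 UMIs, 40.3% of quadriceps and 34.9% of diaphragm FAP cells had a Ugdh UMI, so no order of the tissues is read from its share of cells.

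Tnfaip6 was the second gene with a large difference between tissues. FAP cells had 1708 Tnfaip6 UMIs in quadriceps, a level of 64.3 CPM (61.3 to 67.4), and 8083 UMIs in diaphragm, a level of 311 CPM (305 to 318). The ratio was 4.84 (4.59 to 5.10). Unlike Has1, it was not limited to FAP cells. Quadriceps Schwann-like cells reached 62.4 CPM (46.0 to 82.8), an interval that holds the quadriceps FAP level, and tenocyte-like cells 49.6 CPM. In diaphragm the highest other class was the 21 satellite cell-like cells at 73.8 CPM. The FAP-like barcodes outside the definition had 84.6 CPM in quadriceps and 294 CPM in diaphragm.

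Ptx3 was the third gene above 2-fold. It went from 208 UMIs and 7.83 CPM (6.80 to 8.97) in quadriceps to 881 UMIs and 33.9 CPM (31.7 to 36.2) in diaphragm FAP cells, a ratio of 4.33 (3.72 to 5.06). This difference rested on few cells. Only 4.96% of quadriceps and 6.47% of diaphragm FAP cells had any Ptx3 UMI, and 100 diaphragm FAP cells held 96.6% of its UMIs there.

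Vcan and Cd44 were lower in diaphragm FAP cells, both by less than 2-fold. Vcan was at 307 CPM in quadriceps and 175 CPM in diaphragm, a ratio of 0.569 (0.549 to 0.590), and, FAP-like barcodes aside (321 CPM), its highest level elsewhere in quadriceps was 49.6 CPM in tenocyte-like cells. Cd44 was at 68.3 and 44.6 CPM, a ratio of 0.653 (0.606 to 0.703). FAP cells were not the main Cd44 cells. Macrophage-like cells had 350 CPM (304 to 401) in quadriceps and 769 CPM in 16 diaphragm cells, and T cell-like cells had 111 and 228 CPM. Quadriceps endothelial-like cells held 0 Cd44 UMIs.

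The hyaluronidase genes were low in FAP cells and close in the 2 tissues. Hyal2 was at 7.49 and 7.55 CPM, a ratio of 1.01 (0.823 to 1.23). It was a gene of endothelial-like cells, at 147 CPM (102 to 204) in quadriceps and 308 CPM (154 to 551) in the 16 diaphragm cells. In quadriceps the level was alike in the 21 endothelial-like cells of a cluster with Lyve1, a hyaluronan receptor of lymphatic endothelium (134 CPM), and in the 61 cells of a cluster with Flt1, a vascular endothelial growth factor receptor (152 CPM). Hyal1 was at 8.25 and 6.08 CPM, a ratio of 0.738 (0.598 to 0.910), with no class far above the rest. After thinning, 2.76% of quadriceps FAP cells and 2.74% of lymphocyte-like cells had a Hyal1 UMI, so its share gave no difference between FAP cells and lymphocyte-like cells.

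**Figure D1:**
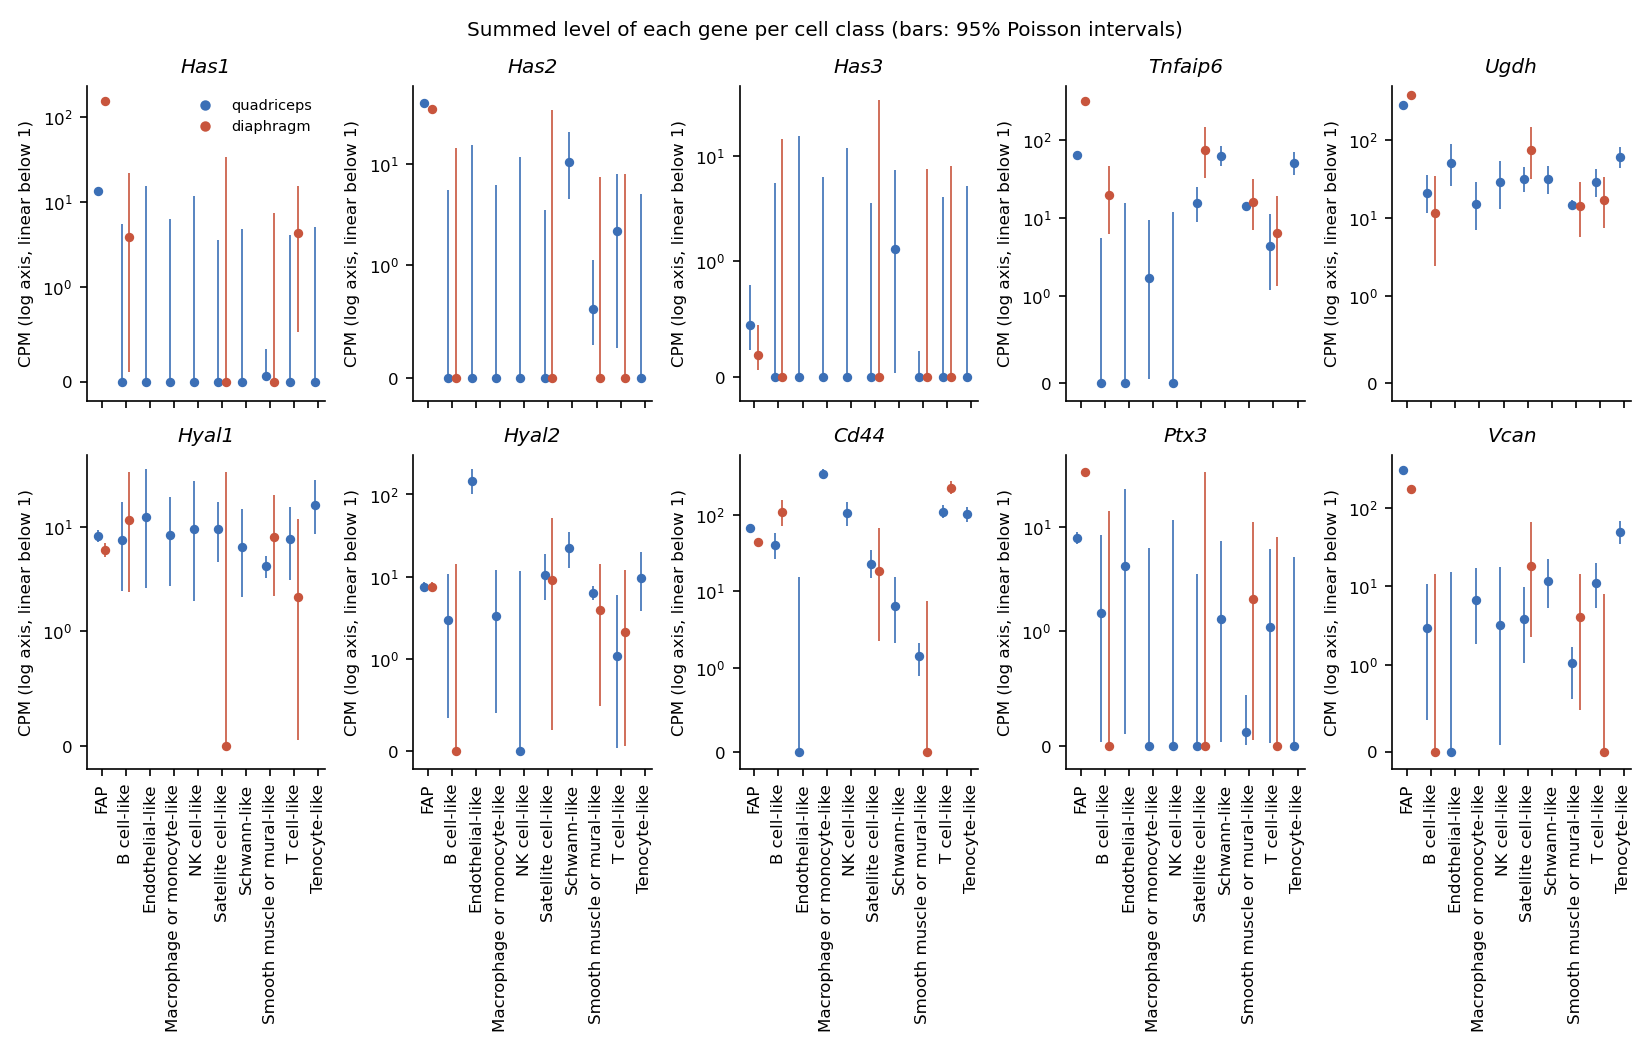
Level of each of the 10 genes (y axis, CPM on a log axis that is linear below 1) by cell class (x axis) in quadriceps (blue) and diaphragm (red), for classes with at least 20 cells in that tissue and without the FAP-like barcodes, with exact Poisson 95% intervals as bars. Has1, Has2, Ugdh and Vcan are highest in FAP cells of both tissues, Cd44 in macrophage-like cells among classes of at least 20 cells in quadriceps, and Hyal2 in endothelial-like cells.

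Counted over classes with at least 20 cells and leaving out the FAP-like barcodes, 4 of the 9 genes with enough UMIs were at least 2-fold higher in quadriceps FAP cells than in the highest of 9 other classes (Has1, Has2, Ugdh and Vcan), where 2.22% of all genes were. Hyal2 and Cd44 were at least 2-fold lower than the highest other class, as were 48.1% of all genes. In diaphragm only 4 other classes could be compared. There 6 genes were higher in FAP cells (Has1, Has2, Tnfaip6, Ugdh, Ptx3 and Vcan), against 11.5% of all genes, and Cd44 was lower, against 30.4%. Nothing is read from these counts, since the genes were selected on measured values of these same FAP cells.

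Between tissues, 3 of the 9 genes were at least 2-fold higher in diaphragm FAP cells (Has1, Tnfaip6 and Ptx3) and 0 were lower. Of 11519 genes with at least 100 UMIs, 3.09% were at least 2-fold higher and 4.21% at least 2-fold lower in diaphragm. On the scale of log2(CPM + 1), the differences were 3.41 for Has1, 2.26 for Tnfaip6 and 1.98 for Ptx3. The remaining 6 genes lay between -0.81 for Vcan and 0.40 for Ugdh. The median over the 9 genes was 0.01 and over all genes -0.10. Because the genes were selected on these levels, nothing is read from the count.

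**Figure D2:**
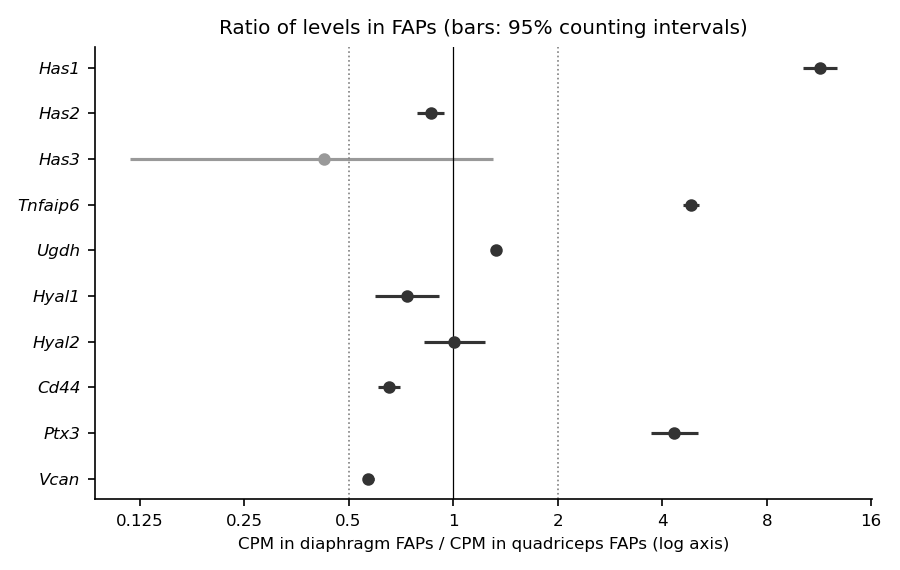
Ratio (x axis, log) of the diaphragm to the quadriceps FAP level for each gene (y axis), with 95% counting intervals and the 2-fold lines dotted. Has3, in grey, had too few UMIs to compare. Has1 at 11.4, Tnfaip6 at 4.84 and Ptx3 at 4.33 lie above 2-fold, and the remaining genes with enough UMIs lie between 0.569 and 1.32.

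FAP cells near the Dcn limit were few. Among Pdgfra-positive barcodes with 40 to 49 Dcn UMIs, 33 quadriceps barcodes held 0 Has1 UMIs and 9 diaphragm barcodes held 18. Among those with 50 to 59 Dcn UMIs, 27 quadriceps barcodes held 4 Has1 UMIs and 10 diaphragm barcodes held 6.

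Both the share of FAP cells with a UMI and the count in the highest cells were larger in diaphragm for Has1. Thinned to 3000 UMIs a cell, 3.23% of 2320 quadriceps FAP cells (2.55 to 4.04, Clopper-Pearson 95% interval) and 14.0% of 2006 diaphragm FAP cells (12.5 to 15.6) had a Has1 UMI. Without thinning the shares were 8.17% and 24.5%. Lymphocyte-like cells, which should lack the gene, gave 0 of 292 in quadriceps, which allows a share of up to 1.03%, and 1.68% (0.204 to 5.94) of 119 in diaphragm, at median depths of 3528 and 4867 UMIs before thinning. For Tnfaip6 the thinned shares were 15.6% (14.1 to 17.1) and 33.2% (31.1 to 35.3), against 0.342% and 5.04% in lymphocyte-like cells, and the unthinned shares were 41.3% and 70.0%. The diaphragm shares of both genes lay above those of the lymphocyte-like cells.

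A small set of diaphragm FAP cells carried most Has1. In quadriceps 2 FAP cells had 10 or more Has1 UMIs and the highest had 23. In diaphragm 120 FAP cells did (5.97%), the highest had 74, and the 100 highest FAP cells held 68.3% of all Has1 UMIs while 75.5% of FAP cells had 0. Tnfaip6 was spread more widely in diaphragm, with 162 FAP cells at 10 or more UMIs, a highest count of 130, and 51.8% of UMIs in the 100 highest cells. Ptx3 was the most uneven, with 27 diaphragm FAP cells at 10 or more UMIs and a highest count of 95, against 2 cells and 28 UMIs in quadriceps.

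**Figure D3:**
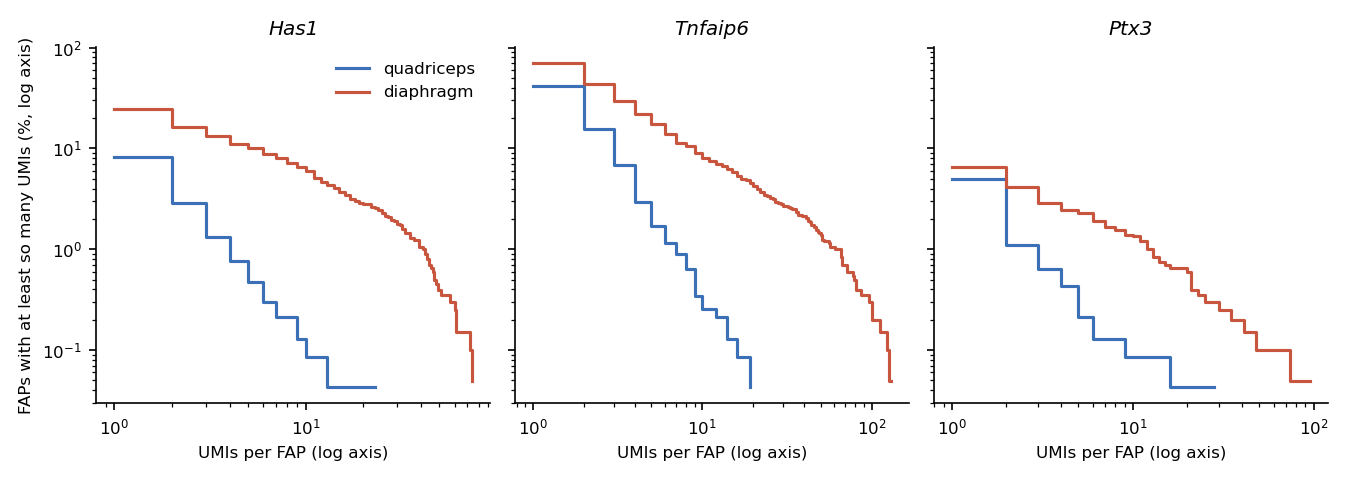
Percent of FAP cells (log axis) with at least the number of UMIs on the x axis for Has1, Tnfaip6 and Ptx3, with 1 line per tissue. The diaphragm lines extend to 74 Has1, 130 Tnfaip6 and 95 Ptx3 UMIs in a cell, and the quadriceps lines end at 23, 19 and 28.

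In diaphragm, the same single FAP cells tended to be high in Has1, Tnfaip6, Ugdh and Ptx3. Over 2010 diaphragm FAP cells, on log(1 + UMIs per 10000), Pearson's r was 0.47 for Has1 and Tnfaip6, 0.45 for Has1 and Ugdh, and 0.45 for Tnfaip6 and Ugdh. Ptx3 had r of 0.38 with Tnfaip6 and 0.31 with both Has1 and Ugdh. All of these cells share a library, and Has1 itself had r of 0.13 with the log10 of a cell's UMIs. With every cell thinned to 5000 UMIs, r was 0.38 for Has1 and Tnfaip6 and 0.37 for Has1 and Ugdh.

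In the quadriceps FAP cells, where Has1 and Tnfaip6 were found in fewer cells, r among Has1, Tnfaip6 and Ugdh was lower. Over these 2339 FAP cells r was 0.07 for Has1 and Tnfaip6 and 0.06 for Tnfaip6 and Ugdh, which are weak in counts this sparse, while Has1 and Ugdh had r of 0.27. After thinning, 1.61% of quadriceps FAP cells had UMIs of both Has1 and Tnfaip6, where the shares of each gene would give 0.986% if they were independent. In diaphragm 11.7% had both, against 8.18% if independent. Several pairs had r of the same sign in both tissues, among them some with Fbn1, the fibrillin gene that names the FBN1+ FAP subtype of the study. Ugdh had r of 0.53 with Fbn1 in quadriceps and 0.37 in diaphragm, and -0.44 and -0.43 with Lum, the lumican gene of the LUM+ subtype. Vcan had r of 0.44 with Fbn1 in both tissues. Has2 had r of 0.25 and 0.39 with Ugdh and of 0.21 and 0.27 with Vcan. Has1 had r of 0.16 and 0.23 with Has2. With cells thinned to equal depth, r of these pairs was smaller in size. Has2 had r of 0.15 and 0.23 with Ugdh and of 0.13 and 0.12 with Vcan. Has1 had r of 0.07 and 0.13 with Has2. Ugdh had r of 0.43 and 0.28 with Fbn1 and of -0.36 and -0.37 with Lum. Vcan had r of 0.34 with Fbn1 in both tissues. Without thinning, Vcan had r of 0.15 and 0.31 with the log of a cell's UMIs.

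Grouping diaphragm FAP cells by their Has1 UMIs, after thinning to 5000 UMIs, showed the size of these relations. Tnfaip6 was at 187 CPM in 1618 FAP cells without Has1, 514 CPM in 252 with 1 to 4 Has1 UMIs and 1762 CPM in 99 with 5 or more. Ugdh was at 209, 612 and 1810 CPM in these groups, and Ptx3 at 10.1, 86.5 and 265 CPM. Each of these genes was thus several times higher where Has1 was high. Has2 was at 24.4, 50.0 and 80.8 CPM and Vcan at 150, 176 and 228 CPM, a smaller change. Of the 6 other precursor genes measured, the largest changes were those of Gfpt2, which opens the hexosamine pathway, at 185, 406 and 895 CPM and Uap1, which makes UDP-N-acetylglucosamine, at 234, 432 and 804 CPM. Gnpnat1 was at 39.9, 54.8 and 94.9 CPM, Ugp2 at 229, 302 and 309 CPM and Pgm3 at 29.9, 33.3 and 42.4 CPM, while Gfpt1 showed no increase (50.3 CPM without Has1 and 46.5 CPM with 5 or more UMIs). Lum went the other way, at 2194, 1399 and 1087 CPM. Of the 2 genes that define FAP cells, Pdgfra was nearly level at 548, 509 and 507 CPM, and Dcn fell, at 20350, 16398 and 14234 CPM.

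In quadriceps 92 FAP cells had a Has1 UMI at 5000 UMIs, and 2142 had none. Ugdh was at 746 CPM with and 246 CPM without Has1, Has2 at 80.4 and 40.1 CPM, and Vcan at 502 and 285 CPM. Tnfaip6 was at 130 and 61.4 CPM. Fbn1 was at 3000 and 1345 CPM. All of these were higher in the quadriceps FAP cells with Has1, nearly all of which (90 of 92) had 1 to 4 Has1 UMIs. Pdgfra and Dcn, which define FAP cells, were lower with Has1, at 322 and 14543.5 CPM against 551 and 22086.6 CPM without. In the 90 cells with 1 to 4 Has1 UMIs Ugdh was at 753 CPM, against 246 CPM without Has1. At the same Has1 counts in diaphragm it was at 612 against 209 CPM. Tnfaip6 was at 113 against 61.4 CPM in quadriceps and at 514 against 187 CPM in diaphragm. The lower r of Has1 and Ugdh in quadriceps thus came without a smaller difference of Ugdh at like Has1 counts.

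**Figure D4:**
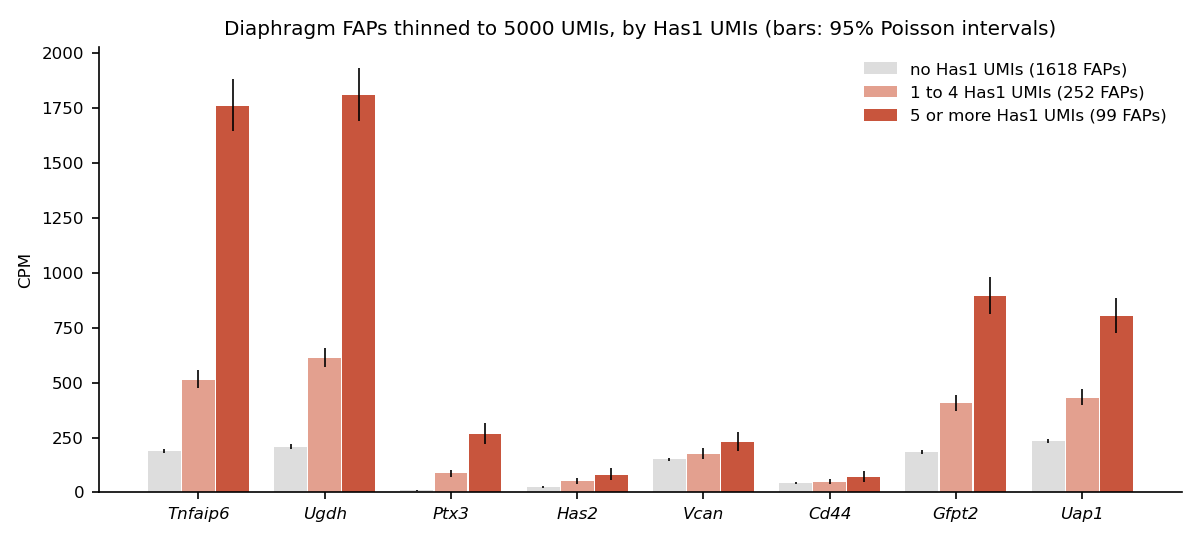
Level of 6 of the genes and of Gfpt2 and Uap1 (bars, CPM, with exact Poisson 95% intervals as lines) in diaphragm FAP cells thinned to 5000 UMIs and grouped by their Has1 UMIs. Tnfaip6 goes from 187 to 1762 CPM and Ugdh from 209 to 1810 CPM between FAP cells without Has1 and those with 5 or more UMIs.

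The 23 diaphragm FAP cells with 5 or more Ptx3 UMIs stood at the far end of the same relation. They had 3557 CPM of Tnfaip6, 1243 CPM of Has1 and 2617 CPM of Ugdh, against 235, 119 and 289 CPM in the 1877 FAP cells without Ptx3.

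The genes most like a member were ranked by the smaller of its r in the tissues, over 8204 genes found in at least 10% of the FAP cells of each. Has3, Hyal1, Hyal2 and Ptx3 fell below this share and were not ranked, while Has1, found in 8.17% of quadriceps FAP cells, was kept. For Has1 the nearest genes were Ugdh (0.27 in quadriceps and 0.45 in diaphragm), Uap1 (0.26 and 0.35), Gfpt2 (0.25 and 0.43), Efhd1 (0.24 and 0.25) and Klf4 (0.24 and 0.25). For Ugdh they were Gfpt2 (0.58 and 0.58), Cd248 (0.58 and 0.51), Efhd1 (0.57 and 0.49), Fn1 (0.53 and 0.47) and Efemp1 (0.51 and 0.47). The list for Ugdh held the highest values of any ranked member, and it held the precursor gene Gfpt2 first, which was also among the nearest genes of Has1 and Has2. For Has2 the nearest were Cd55, Stmn4, Fbn1, Gfpt2 and Efhd1, with r from 0.26 to 0.27 in quadriceps and 0.32 to 0.37 in diaphragm. For Vcan they were Fbn1, Fstl1 (0.38 and 0.45), Cd55, Uap1 and Cd248. For Tnfaip6 the quadriceps r was at most 0.13 (Efemp1, 0.33 in diaphragm, then Enpep, Ifi204, H2-Q4 and Lamb1). For Cd44 it was at most 0.24 (Tmsb4x, Tagln2, Vim, Cd9 and Tppp3). Both are too weak to describe a shared pattern. All r of these lists are without thinning, and all were weaker with cells thinned to equal depth. Ugdh and Gfpt2 then had r of 0.44 in quadriceps and 0.46 in diaphragm. Has1 and Ugdh had 0.19 and 0.37, and Has2 and Gfpt2 had 0.19 and 0.24.

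The FAP cells were divided into subclusters without the 10 genes and the pathway genes, and 5 subclusters held at least 40 FAP cells of each tissue. They are called by their leading genes. Has1 was far higher in diaphragm in 4 of them. In the Fbn1-rich subcluster led by Cmah, Fam167a and Stmn4 (489 quadriceps and 361 diaphragm FAP cells) it was at 27.5 and 310 CPM, a ratio of 11.3 (9.55 to 13.3). In the subcluster led by Mme, Cxcl14 and Hsd11b1 it was at 3.41 and 107 CPM, in that led by Col6a5, Aox3 and Gdf10 at 7.88 and 191 CPM, and in that led by Ptn, Clu and Hmcn1 at 6.97 and 144 CPM. The Cmah subcluster held 40.9% of diaphragm Has1 UMIs with 18.0% of the diaphragm FAP cells, and the Col6a5 subcluster 36.3% with 30.7%.

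The subcluster led by Fbn2, Kdr and Slit2 held 518 diaphragm but only 40 quadriceps FAP cells. There Has1 was at 28.9 CPM in diaphragm and 53.8 CPM in quadriceps, a ratio of 0.537 (0.367 to 0.812). The 31 quadriceps UMIs came from 7 FAP cells, and 23 of them from a single cell, without which the quadriceps level was 14.6 CPM, below that of diaphragm. The direction in this subcluster therefore rested on 1 cell. Has2, Cd44 and Vcan were lower in diaphragm there by more than in any other of the 5 subclusters, with ratios of 0.315, 0.297 and 0.266. Since nearly all of its cells came from 1 library, it may stand for that library as much as for a kind of FAP cell.

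Tnfaip6 was higher in diaphragm in all 5 subclusters, from 1.93 times in the Fbn2 subcluster to 6.12 times in the Cmah subcluster, where it was at 81.0 and 496 CPM. Ptx3 was higher mainly in the Cmah subcluster (7.66 and 53.5 CPM) and the Col6a5 subcluster (9.67 and 67.1 CPM), with ratios of 6.99 (5.07 to 9.84) and 6.94 (4.72 to 10.6), and was under 10 CPM in both tissues in the other 3. Ugdh was highest in the Cmah subcluster of either tissue, at 600 and 925 CPM. Has2 was also highest there, at 85.0 and 85.2 CPM, a ratio of 1.00 (0.880 to 1.14), when only these 5 subclusters are compared. The relation of Has1 and Tnfaip6 over single diaphragm FAP cells was present within 4 of the subclusters, with r of 0.60 in the Cmah subcluster (361 cells), 0.48 in the Col6a5 (617), 0.37 in the Ptn (80) and 0.33 in the Mme subcluster (422), and was 0.04 in the Fbn2 subcluster (518).

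**Figure D5:**
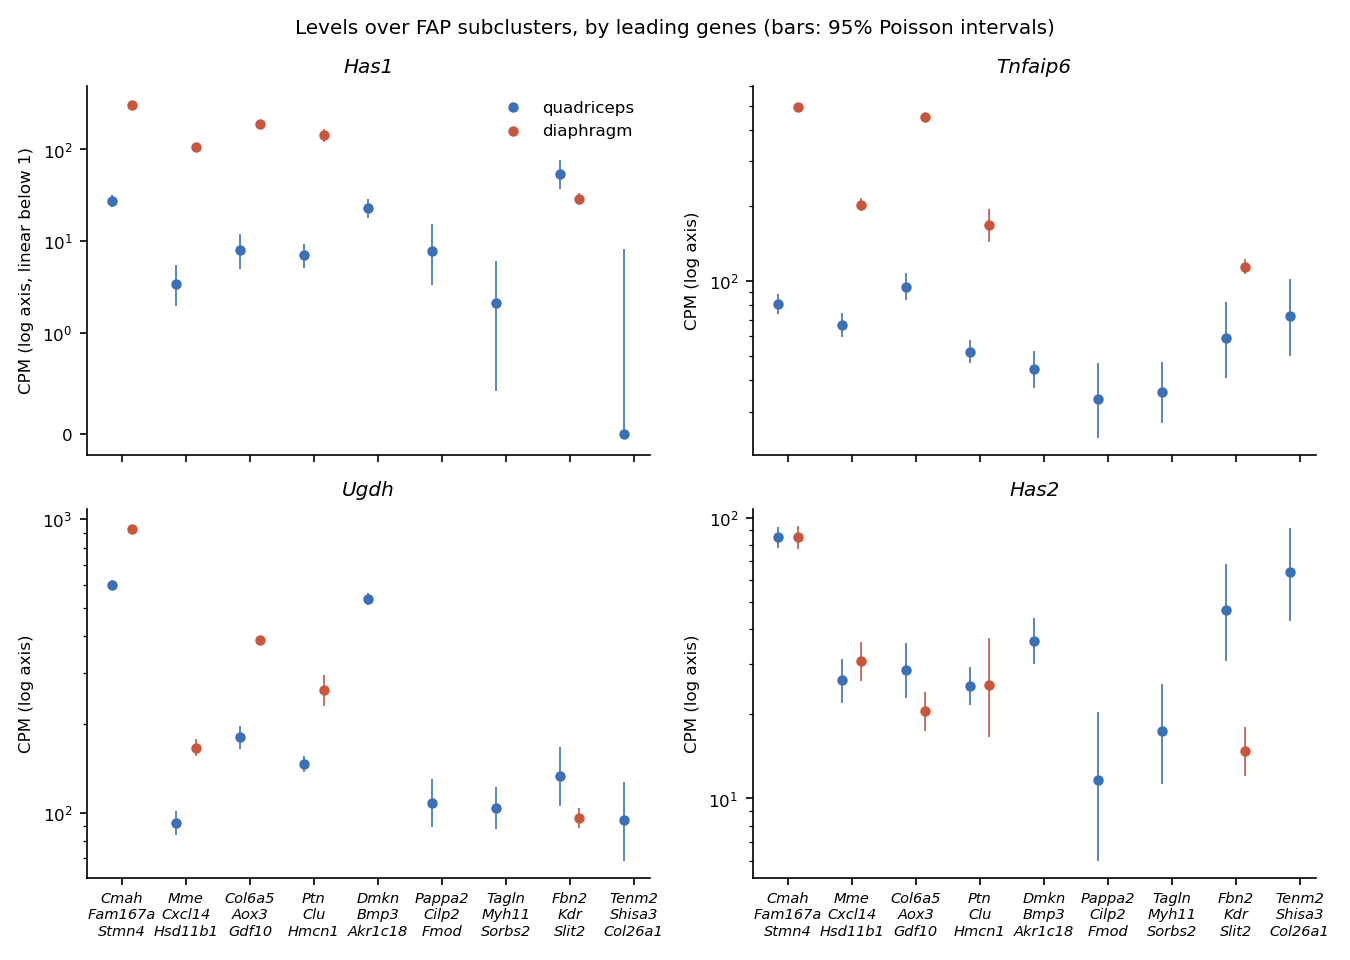
Level (y axis, CPM on a log axis, for Has1 linear below 1, with exact Poisson 95% intervals) of Has1, Tnfaip6, Ugdh and Has2 in the FAP subclusters of quadriceps and diaphragm, each subcluster called by its leading genes. Has1 reaches 310 CPM in diaphragm and 27.5 CPM in quadriceps cells of the Cmah subcluster, and in the Fbn2 subcluster the quadriceps level of 53.8 CPM, above the diaphragm level of 28.9 CPM, is 14.6 CPM without its highest cell.

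Of 47 further genes 26 had at least 100 UMIs, of which 3 were at least 2-fold higher and 1 at least 2-fold lower in diaphragm FAP cells, against 3.09% and 4.21% of all genes, with a median log2 difference of -0.05 against -0.10 over all genes. Nothing is read from these counts, since the list was chosen with earlier results of these data known. The higher genes were the versican-cleaving proteases Adamts4 (log2 difference 1.56) and Adamts1 (1.31, from 97.6 to 243 CPM), and Icam1, an adhesion receptor that lies at the limit with 1.00. Tlr2, a receptor of innate immunity, was within 2-fold (0.50). The lower gene was Spp1, the Cd44 ligand osteopontin, at 10.6 CPM in quadriceps and 0.154 CPM in diaphragm (-3.33). Adamts5 (-0.96), Gnpnat1 (-0.94), Itih5 (-0.93) and Mmp14 (-0.83) came next. All 6 measured genes of precursor supply besides Ugdh stayed within 2-fold, Gfpt2 at 0.25 and Uap1 at -0.01. Of the heavy chain donors that TSG-6 acts on, 2 of 6 had enough UMIs, and Itih5 was at 833 and 435 CPM. None of the 7 hyalectan and link protein genes had enough UMIs.

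Genes of immediate early and stress response, which dissociation of tissue is known to raise, moved with the same tissue difference. All 16 listed genes were at least 2-fold higher in diaphragm FAP cells, where 3.09% of all genes were, with a median log2 difference of 2.65. The list was chosen with earlier results of these data known, so nothing is read from this count. Fos was at 264 and 2694 CPM and Atf3 at 27.7 and 516 CPM, and Fos was higher in diaphragm in all 5 subclusters, the Fbn2 subcluster included, where it was 30.1 times higher. Within diaphragm, FAP cells without Has1 already had 2519 CPM of Fos, those with 1 to 4 Has1 UMIs 3239 CPM and those with 5 or more 3830 CPM. Atf3 was at 405, 805 and 1061 CPM in these groups and Junb at 1655, 3329 and 5339 CPM, so both were higher where Has1 was high. In quadriceps, Fos was at 191 CPM in the 92 FAP cells with Has1 and 242 CPM in the 2142 without. Junb was at 233 and 277 CPM there, and Atf3 at 30.4 and 21.3 CPM. Over single quadriceps FAP cells, Has1 had r of -0.01 with Fos, 0.003 with Junb and 0.06 with Atf3. Over single diaphragm FAP cells the summed list had r of 0.21 with Has1 and 0.21 with Tnfaip6. Of the list, r was computed singly for Junb, Atf3, Egr1 and Fos. It was 0.39 with Has1 and 0.38 with Tnfaip6 for Junb, and 0.29 and 0.32 for Atf3. For Egr1 it was 0.23 and 0.25, and for Fos 0.17 and 0.18, below the summed list. The part of this response in the levels of Has1, Tnfaip6 and Ptx3 was not tested.

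Markers of mesothelial cells, the lining cells of the diaphragm surface that are known to make hyaluronan, were in sum also higher in diaphragm FAP cells. Their 7 genes summed to 7.91 CPM in quadriceps FAP cells, with Lrrn4, Wt1 and Krt8 at 0, and to 113 CPM in diaphragm FAP cells, with all 7 detected. Of the 2935 diaphragm UMIs, 2411 were of Wt1, found in 962 FAP cells, while the defining genes Upk3b and Msln had 142 UMIs in 10 FAP cells and 102 UMIs in 3. Krt19 went the other way, with 177 of the 210 quadriceps UMIs, in 72 FAP cells, and 34 UMIs in 6 diaphragm FAP cells. At 5000 UMIs the 351 diaphragm FAP cells with Has1 held 0 Upk3b and 0 Msln UMIs. Among the 1618 without Has1, 0.185% had a Upk3b UMI and 0.185% a Msln UMI. These shares are too low for the counts of 0 to tell the groups apart. An unnamed cluster of 18 diaphragm barcodes with Upk3b at 2017 CPM held 1 Has1 UMI (9.74 CPM) and 0 of Tnfaip6. Tenocyte markers summed to 559 and 1693 CPM in the FAP cells of quadriceps and diaphragm, and smooth muscle markers to 1761 and 37.0 CPM. With FAP cells that held a UMI of another type's defining markers left out, Has1 was at 14.5 CPM in 1646 quadriceps and 146 CPM in 1874 diaphragm FAP cells.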

How the data were processed

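The authors aligned droplet reads with Cell Ranger 3.0.0 (mm10, per the submitters' processing notes) and deposited raw UMI counts per gene and barcode, 1 matrix per tissue. The counting strand was not given in the sources used here. The 10 genes and all lists were chosen with earlier results of these data known.

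Deposited counts were used with no barcode removed. FAP cells had at least 1 Pdgfra and 50 Dcn UMIs. The remaining barcodes were clustered over both libraries in scanpy 1.11.5 (2000 variable genes, 20 principal components, 20 neighbours, Leiden resolution 1) without the 10 genes. A cluster was named when at least 3 markers of a type were detected in 25% of cells and raised 2-fold, a rule set after the clusters were seen. FAP cells were subclustered at resolution 0.5 with genes scaled within library. Scrublet called 98 quadriceps and 4 diaphragm barcodes as doublets, which were kept. UMIs were summed per class and tissue, the total UMI count scaled them to CPM, and a pseudocount of 1 CPM was used for log2 differences. A 2-fold difference was called among genes with at least 100 UMIs over the FAP cells of both tissues. With 1 library per tissue no test was made. Intervals were computed in scipy 1.17.1. Depth was 28545242 to 50854519 UMIs a library. Pathway genes were named as the 5 largest differences in each direction, of which 1 is not reported here, and nearest genes as the 5 with the highest smaller r of the tissues. The scripts were tested on simulated data. Alternatives changed the gate, barcode filter, scaling, weighting, depth, doublets, pseudocount and minimum.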

Additional observations from a re-analysis of the deposited data

Results flagged for a closer look

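Has1 and Ugdh differed between tissues in opposite directions in different FAP subclusters. The diaphragm level of Has1 was 0.537 times the quadriceps level in the subcluster led by Fbn2, Kdr and Slit2, and 11.3 to 31.5 times in the other 4 subclusters with at least 40 FAP cells of each tissue. For Has1 the split rested on 1 quadriceps FAP cell with 23 of the 31 UMIs, and without it the quadriceps level went from 53.8 to 14.6 CPM, below the 28.9 CPM of diaphragm. Ugdh was at 0.718 times in the Fbn2 subcluster (0.567 to 0.922) and 1.54 to 2.14 times in the other 4. Its 77 quadriceps UMIs there came from 24 FAP cells, and without the highest cell its quadriceps level was 122 CPM, still above the 96.0 CPM of diaphragm. The difference between subclusters was not tested, since each tissue has 1 library, and the Fbn2 subcluster has only 40 quadriceps FAP cells.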

How the results depend on the processing

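Under all 13 alternatives for the gate, barcode filter, scaling, weighting, depth, doublets, cells of another type, pseudocount and minimum, 3 genes were at least 2-fold higher in diaphragm FAP cells and 0 were lower. Of 130 recomputed log2 differences of single genes 106 stayed within counting error and 24 moved further. The sign turned in 3, all of Hyal2, whose difference of 0.01 ranged from -0.04 to 0.29. Has1 ranged from 2.79 (pseudocount of 10 CPM) to 3.69 (at least 2 Pdgfra UMIs), Tnfaip6 from 2.11 to 2.38 and Ptx3 from 1.30 to 2.29. The edgeR TMM scaling (edgeR 4.0.16) moved the median of all genes from -0.10 to 0.01. The r of Has1 and Tnfaip6 ranged from 0.06 to 0.08 in quadriceps and from 0.33 (Spearman) to 0.48 in diaphragm. No paired analysis was possible because each tissue has 1 library, and for the same reason no library could be left out. Depth limits the classes with under 100 cells, where a gene at 0 UMIs may still be at the level of the quadriceps FAP cells.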

Other observations

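The inflammatory genes Il6, Ptgs2 and Cxcl1 were higher in diaphragm FAP cells with more Has1. Of 9 listed genes, 5 were at least 2-fold higher in diaphragm than in quadriceps FAP cells (Il6, Cxcl1, Cxcl2, Ccl7 and Ptgs2), against 3.09% of all genes, and Ccl2, Nfkbia, Tnfaip3 and Lif were within 2-fold. This list was also chosen with earlier results of these data known, so nothing is read from the count. The cytokine gene Il6 was at 17.3 CPM in diaphragm FAP cells without Has1, 51.6 CPM in those with 1 to 4 Has1 UMIs and 178 CPM in those with 5 or more. Ptgs2, which encodes the inducible cyclooxygenase, was at 60.3, 212 and 473 CPM, and the neutrophil chemokine gene Cxcl1 at 248, 481 and 913 CPM. The diaphragm FAP cells with the most Has1 thus also had the most of these 3 transcripts. The other listed genes were not grouped by Has1 UMIs, so these 3 do not stand for the list. In quadriceps, Cxcl1 was at 32.6 CPM in the 92 FAP cells with Has1 and 44.4 CPM in the 2142 without. Il6 had 0 UMIs in the 92 cells and was at 1.87 CPM without Has1, while Ptgs2 was at 58.7 and 17.2 CPM.

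Cd44 was at 1338 CPM in the 9 neutrophil-like barcodes of quadriceps and at 2913 CPM in the 2 of diaphragm, above its levels in macrophage-like cells, but these classes are too small for a comparison.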
